A study of Danio rerio with 8 samples.

Results

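The genes described here are 9 enzymes of the cholesterol synthesis pathway, hmgcs1, hmgcra, mvk, idi1, fdps, fdft1, sqlea, lss and cyp51, and ldlra, which encodes the receptor that takes up low-density lipoprotein. They are given by gene symbol, as a list drawn up with earlier results of these data known, and each matched a single row of the deposited count table, so that 10 rows of 35197 are covered. All 10 were among the 21447 rows abundant enough to test. The study measured RNA in 8 whole zebrafish larvae, each profiled alone at 6 days after fertilization. Their genotypes were wild-type in 4 and osgep G177A/G177A in 4, and the wild-type animals were siblings of the mutants. The homozygotes were zygotic, that is, born to parents that could still supply wild-type product to the egg. The protein made from osgep is the catalytic part of KEOPS, which places the N6-threonylcarbamoyl modification on transfer RNA. The labels name no clutch, tank or day, and although they describe feeding of larvae in the facility, they do not say whether the profiled animals had eaten.

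Cholesterol is built from acetyl-CoA. The early enzymes make mevalonate and turn it into isoprenoid diphosphates, which also feed ubiquinone, dolichol, protein prenylation and an isopentenyl modification of some transfer RNAs; squalene synthase then commits farnesyl diphosphate to sterols, and the late enzymes close and trim the ring. When sterol in the endoplasmic reticulum runs low, SCAP escorts the SREBP transcription factors to the Golgi apparatus for cleavage, and the released fragments switch on most genes of the pathway together with the receptor gene. INSIG proteins hold this step back when sterol is plentiful. In vertebrates the liver and intestine are major sites of synthesis and lipoprotein export, and a larva also draws on yolk lipid.

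Estimated counts totalled between 14398812 and 19052599 per library, and those of the 10 genes ran from 20 for lss in wild-type 3 to 1689 for ldlra in homozygote 4. osgep, the targeted gene, was at 8.66 ± 2.67 CPM (SD, n = 4) in wild-type larvae and 2.73 ± 0.852 CPM (SD, n = 4) in homozygotes, with no overlap, where CPM stands for counts relative to a common library size after TMM scaling. That scaling matters for what follows. The 100 most abundant rows took between 34.5% and 43.4% of counts in wild-type larvae and between 30.4% and 38.6% in homozygotes, and the TMM factors ran from 0.732 to 1.065 and from 0.951 to 1.23. Scaled by library totals alone, the median log2 fold change of all tested genes moved from 0.02 to 0.40, in favour of homozygotes. Summed CPM of 8 muscle markers, some of them among the most abundant transcripts, lay between 27720 and 58760 in wild-type larvae and between 19320 and 43280 in homozygotes. Wild-type 1 had the lowest muscle sum and the lowest top-100 share of its group, and homozygote 2 the highest of both in its own.

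None of the 10 genes passed the test between genotypes (quasi-likelihood test in edgeR, with p-values adjusted over all tested rows by Benjamini-Hochberg), whereas 1.05% of all tested rows did, 0.284% higher and 0.769% lower in homozygotes. Closest was fdps, at 1.58-fold in homozygotes with an adjusted p of 0.051. At an unadjusted p under 0.05, hmgcs1, hmgcra and fdps were higher, which is 3 of 10 where 9.84% of all rows were, and fdft1 was lower, 1 of 10 where 12.4% were. Of the 10 log2 fold changes 7 lay above 0, as did 51.8% of all rows, and their median was 0.54 against 0.02 for all rows. The means of 6 enzymes, hmgcs1, hmgcra, fdps, sqlea, lss and cyp51, had fitted folds between 1.45 and 1.70, while those of mvk, idi1 and fdft1 were below 1. Where whole larvae are measured, fewer cells that make a transcript and less of it per cell cannot be told apart.

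**Figure D1:**
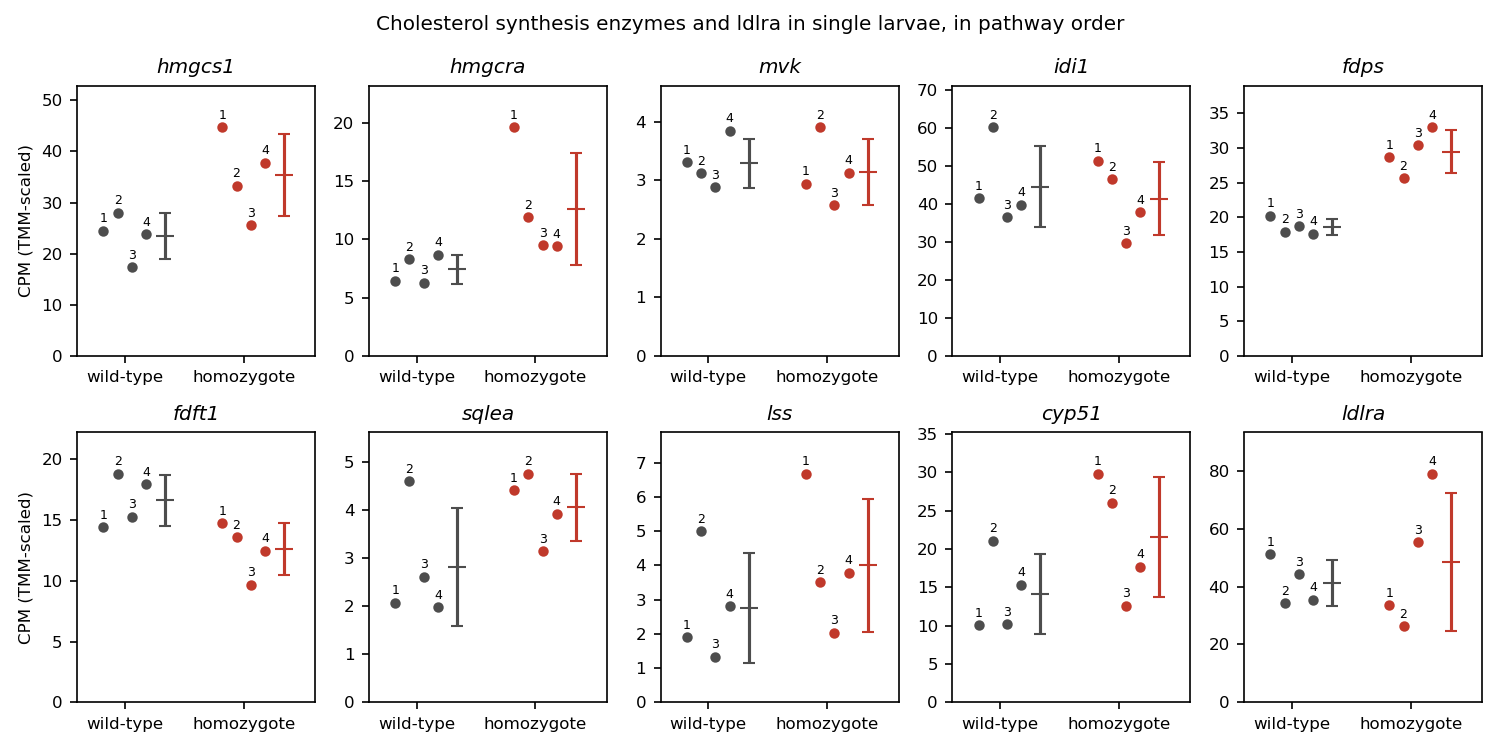
Each panel plots the level of a gene in TMM-scaled CPM, with a numbered point per larva and the mean ± SD beside it, for 4 wild-type and 4 homozygous larvae. The groups do not overlap for fdps and hmgcra; homozygote 1 is the highest larva for hmgcs1, hmgcra, lss and cyp51, and wild-type 2 stands high for idi1, sqlea, lss and cyp51.

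The entry of the pathway was sampled by 3 genes. hmgcs1, for the synthase that makes hydroxymethylglutaryl-CoA, was at 24.5, 28.0, 17.4 and 23.8 CPM in the wild-type group, numbered 1 to 4, and at 44.7, 33.3, 25.5 and 37.8 CPM in homozygotes, numbered likewise. Only homozygote 3 was within the wild-type range, and the log2 fold change was 0.59 (SE 0.20, edgeR adjusted p = 0.117). hmgcra encodes a hydroxymethylglutaryl-CoA reductase, the rate-limiting enzyme of the pathway and the target of statins. It measured 6.45, 8.30, 6.30 and 8.70 CPM in wild-type larvae and 19.6, 11.9, 9.50 and 9.44 CPM in homozygotes. Every homozygote was above every wild-type larva, but homozygote 1 stood well above the rest and homozygotes 3 and 4 cleared wild-type 4 by less than 1 CPM. Its log2 fold change was 0.76 (SE 0.25, edgeR adjusted p = 0.114), and 0.48 without homozygote 1. mvk, for mevalonate kinase, which takes the product of the reductase onward, overlapped between groups, at 3.29 ± 0.413 CPM (SD, n = 4) in wild-type larvae and 3.14 ± 0.563 CPM (SD, n = 4) in homozygotes, with a log2 fold change of -0.07 (SE 0.25).

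At the isoprenoid steps, idi1 and fdps parted. idi1, whose enzyme interconverts the isoprenoid building blocks, was at 41.6, 60.2, 36.5 and 39.8 CPM in wild-type larvae and 51.4, 46.6, 29.7 and 37.9 CPM in homozygotes, with the groups fully intermixed and a log2 fold change of -0.11 (SE 0.20). fdps encodes farnesyl diphosphate synthase, which supplies the last intermediate shared by sterols and other isoprenoids. Its values were 20.2, 17.9, 18.8 and 17.6 CPM in wild-type larvae and 28.7, 25.6, 30.4 and 33.0 CPM in homozygotes. These were the tightest groups of the 10 genes, with coefficients of variation of 6.32% and 10.5%, and the lowest homozygote was 0.34 above the highest wild-type larva on the log2 scale. The log2 fold change was 0.66 (SE 0.15, edgeR adjusted p = 0.051). fdps ranked 230 by p among all tested rows, just outside the 226 that passed. Its call changed with the analysis: 7 of 18 alternatives called it higher, among them DESeq2 (adjusted p = 0.00189, with 2.73% of all rows called higher by that tool) and the edgeR fits without wild-type 1 (0.0228) or homozygote 2 (0.0272), and the other 11 did not, with limma voom at 0.0625. Its log2 fold change lay between 0.62 and 1.04 in all 18. The edgeR fits without wild-type 1 and without homozygote 2 called 3.99% and 1.85% of all rows higher. The 7 also include the fit without both larvae, a pair that stands apart in these same data and not by any label. That fit called 7.86% of all rows higher.

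fdft1, for squalene synthase, the enzyme that draws farnesyl diphosphate into sterols, lay on the other side. It was at 14.4, 18.8, 15.3 and 17.9 CPM in wild-type larvae and at 14.7, 13.6, 9.68 and 12.5 CPM in homozygotes. Only homozygote 1 reached into the wild-type range, and the log2 fold change was -0.40 (SE 0.18, edgeR adjusted p = 0.212). With library totals alone this difference was -0.01. Relative to the median of all genes under each scaling, it was -0.42 with TMM and -0.41 with totals.

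At the late steps the groups overlapped for each gene. sqlea, for squalene epoxidase, a second control point of the pathway in mammals, was at 2.08, 4.60, 2.61 and 1.98 CPM in wild-type larvae and 4.42, 4.76, 3.15 and 3.93 CPM in homozygotes. Its log2 fold change was 0.54 (SE 0.30, edgeR adjusted p = 0.305). It was 0.87 without wild-type 2, the highest of its group, and 0.40 without wild-type 4, the lowest. Leaving out a wild-type larva at either end moves the fold by construction. lss, for lanosterol synthase, which closes the sterol ring, measured 1.91, 5.01, 1.34 and 2.80 CPM in wild-type larvae and 6.68, 3.51, 2.04 and 3.79 CPM in homozygotes. Its counts ran from 20 to 118 per library, and its relative spread in wild-type larvae was the widest of the 10 genes (coefficient of variation 58.4%). Its log2 fold change of 0.54 (SE 0.42) was 0.98 without wild-type 2 and 0.20 without homozygote 1. cyp51, for the demethylase that acts on lanosterol, was at 10.1, 21.1, 10.2 and 15.4 CPM in wild-type larvae and 29.8, 26.1, 12.6 and 17.7 CPM in homozygotes. Homozygotes 1 and 2 were above all wild-type larvae, homozygotes 3 and 4 were inside their range, and the log2 fold change was 0.61 (SE 0.30, edgeR adjusted p = 0.255).

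ldlra, the uptake arm, varied in another way. Wild-type larvae measured 51.2, 34.2, 44.2 and 35.5 CPM, and homozygotes 33.6, 26.2, 55.4 and 79.0 CPM. Homozygotes 3 and 4 were the highest of the 8 larvae and homozygotes 1 and 2 the lowest, whereas for cyp51 homozygotes 1 and 2 were the highest. The log2 fold change of 0.24 (SE 0.31, edgeR adjusted p = 0.682) was -0.08 without homozygote 4.

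**Figure D2:**
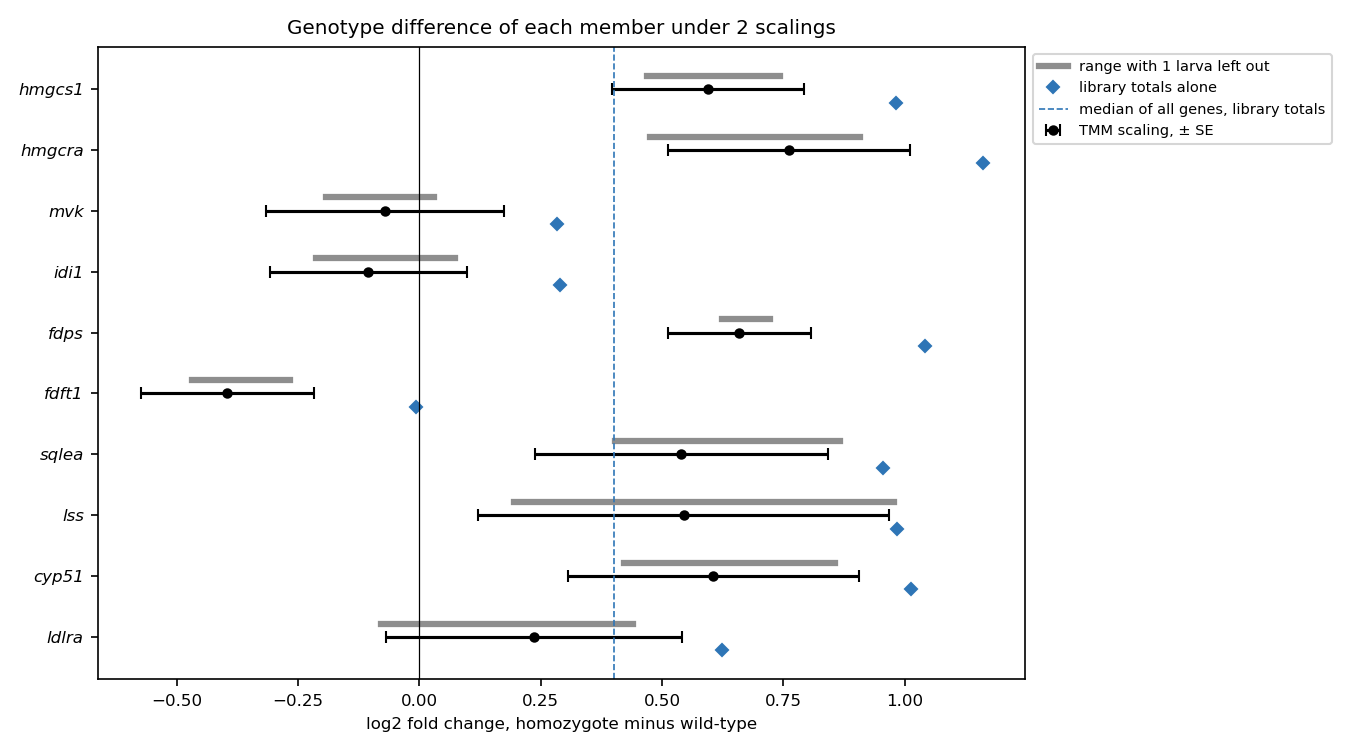
Log2 fold changes (homozygote minus wild-type) of the 10 genes in pathway order are shown as black points ± SE with TMM scaling, grey bars for the range with a single larva left out, and blue diamonds with library totals alone; the dashed line is the median of all genes with the latter scaling, 0.40. fdps has the smallest error, and with library totals mvk and idi1 move to 0.28 and 0.29, to the left of that median.

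Scaling by library totals moved all 10 log2 fold changes upward. Under it 9 of 10 log2 fold changes lay above 0, fdft1 being the exception, and their median was 0.97 against 0.40 for all rows. In 5 genes, hmgcs1, hmgcra, fdps, sqlea and cyp51, every homozygote was then above every wild-type larva, as was so for 11% of all rows; with TMM it was 2 genes, hmgcra and fdps, and 5.5% of rows. In 0 of the 10 was every homozygote below every wild-type larva under either scaling, against 1.46% of rows with totals and 4.95% with TMM. None of the 10 was called under that scaling either, where edgeR called 0.41% of all rows higher and 0.163% lower. Their smallest adjusted p by edgeR was 0.0536, for fdps. At an unadjusted p under 0.05, 6 of the 10 were higher there and 0 lower, where 29.8% of all rows were higher and 2.76% lower. Relative to the median of all genes, mvk and idi1 remained negative, at -0.12 and -0.11.

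Ratios of counts between genes of the same larva do not depend on library scaling. They were taken after the data were seen, for each of the 9 neighbouring pairs in pathway order and for hmgcra to its paralog hmgcrb, and compared by exact two-sided permutation tests, for which 4 larvae against 4 allow no p below 0.0286. In 5 of the 10 the groups did not overlap, with that p in each case and 0.0572 after Benjamini-Hochberg adjustment over the 10, so none passed. Some of the pairs share a gene. The share of other gene pairs that separate the groups was not computed, so the count of 5 has no background to be set against. At the branch point, the fdps to fdft1 ratio was 1.41, 0.952, 1.23 and 0.984 in wild-type larvae and 1.95, 1.88, 3.14 and 2.64 in homozygotes, 2.09-fold higher on the mean of logs (exact permutation p = 0.0286). With any single larva left out, that log2 difference stayed between 0.92 and 1.17. The fdft1 to sqlea ratio was 6.95, 4.09, 5.85 and 9.03 in wild-type larvae and 3.33, 2.86, 3.07 and 3.18 in homozygotes, a 2.00-fold lower mean, with a log2 difference between -1.21 and -0.82 when a larva was left out. idi1 to fdps was 1.70-fold lower and hmgcra to mvk 1.72-fold higher. The ratios of hmgcs1 to hmgcra, mvk to idi1, sqlea to lss, lss to cyp51 and cyp51 to ldlra overlapped between groups, and the mean of the sqlea to lss ratio moved by only 0.01 on the log2 scale.

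**Figure D3:**
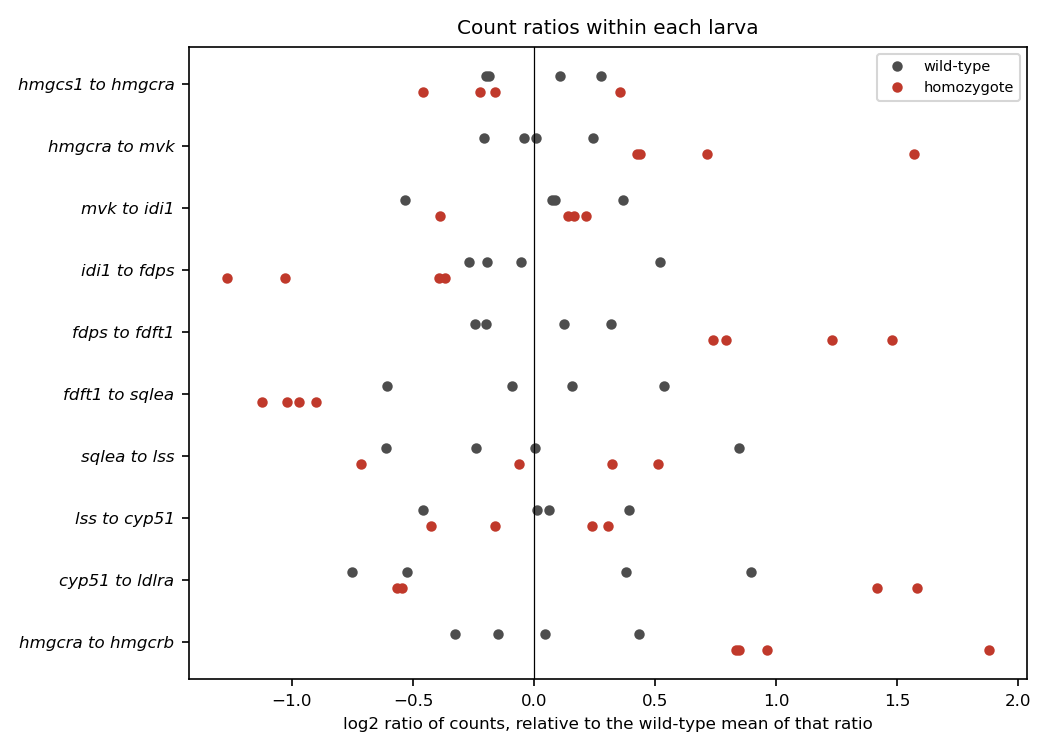
The horizontal axis is the log2 ratio of counts of a gene pair within a larva, relative to the wild-type mean of that ratio, with a point per larva (grey, wild-type; red, homozygote). The groups separate for hmgcra to mvk, idi1 to fdps, fdps to fdft1, fdft1 to sqlea and hmgcra to hmgcrb, and mix for the other 5.

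hmgcrb, the second reductase gene, lay opposite to hmgcra. It was at 39.3, 57.7, 49.6 and 40.4 CPM in wild-type larvae and 33.5, 41.5, 33.4 and 30.4 CPM in homozygotes, with a log2 fold change of -0.43 (SE 0.17, edgeR adjusted p = 0.158), or -0.03 with library totals. Relative to the median of all genes under each scaling, hmgcrb was at -0.45 with TMM and -0.43 with totals. The hmgcra to hmgcrb ratio was 0.164, 0.144, 0.127 and 0.215 in wild-type larvae and 0.586, 0.287, 0.284 and 0.310 in homozygotes. The lowest homozygote exceeded the highest wild-type larva, and the mean was 2.19-fold higher (exact permutation p = 0.0286, adjusted over the 10 ratios 0.0572). Of the 2 reductase genes hmgcrb was the more abundant, at a mean of 46.7 CPM in wild-type larvae and 34.7 CPM in homozygotes. The means of hmgcra were 7.44 and 12.6 CPM, so its higher level does not stand for reductase RNA as a whole. Estimated counts of paralogs can exchange reads where their sequences match.

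The rest of the synthesis pathway was read from a list of 20 further symbols, of which 13 were in the table and tested. By edgeR 0 of these 13 were called. At an unadjusted p under 0.05 in edgeR, 2 were higher and 1 lower, where 9.84% and 12.4% of all rows were. DESeq2 called 1, sc5d, higher, beside its 2.73% of all rows, and limma voom called 0, beside 0.709% of all rows either way. Of the 13, 10 lay above 0, as did 51.8% of all rows, and the median log2 fold change was 0.23. sc5d, for a sterol desaturase near the end of the pathway, was singled out after its values were seen. It was at 4.15, 4.19, 3.22 and 5.14 CPM in wild-type larvae and 7.64, 6.97, 7.50 and 8.79 CPM in homozygotes, without overlap, and its log2 fold change was 0.89 (SE 0.21, edgeR adjusted p = 0.0578). It was called higher without wild-type 1 (0.0345) or homozygote 2 (0.0413), where the edgeR fits called 3.99% and 1.85% of all rows higher. Among other genes of the late steps, msmo1, nsdhl and dhcr7, also picked after their values were seen, were at 0.09, 0.15 and -0.10 (SE 0.20, 0.31 and 0.16). On the same list hsd17b7, ebp, lbr and tm7sf2 were at 0.23, 0.53, 0.27 and -0.02 (SE 0.25, 0.29, 0.20 and 0.21).

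Among 26 tested genes of sterol sensing and uptake, edgeR, DESeq2 and limma voom each called 0, and the median log2 fold change was -0.07. Of all rows these tools called 1.05%, 8.05% and 0.709%, either way. At an unadjusted p under 0.05 in edgeR, 1 was higher and 4 lower, where 9.84% and 12.4% of all rows were. srebf2, for the SREBP factor that chiefly drives cholesterol genes, was at 69.6 ± 4.63 CPM (SD, n = 4) in wild-type larvae and 62.9 ± 2.67 CPM (SD, n = 4) in homozygotes. Homozygote 1 and wild-type 1 met at 65.3 CPM, with the other homozygotes below and the other wild-type larvae above, and the log2 fold change of -0.14 (SE 0.13) was 0.25 with library totals, which is -0.15 from the median gene there. srebf1, the paralog tied more to fatty acid synthesis, had -0.35 (SE 0.17) and scap 0.03 (SE 0.19). insig1, a target of the same factors that feeds back on them, was at 22.1, 10.2, 12.2 and 11.7 CPM in wild-type larvae and 22.4, 13.9, 16.5 and 23.3 CPM in homozygotes. Wild-type 1 stood apart from its group. The log2 fold change was 0.43 (SE 0.25, edgeR adjusted p = 0.324) with it and 0.76 (edgeR adjusted p = 0.0406) without it. Leaving out the highest wild-type larva raises the fold by construction. The fit without wild-type 1 also called 3.99% of all rows higher, against 0.284% with all larvae.

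The neighbouring branches were covered by 3 further lists. Of 17 genes of the isoprenoid branches and of 17 of fatty acid synthesis, edgeR called 0 in each, with median log2 fold changes of -0.05 and 0.10. At an unadjusted p under 0.05 in edgeR, 0 and 2 were higher and 2 and 1 lower, where 9.84% and 12.4% of all rows were. limma voom, which called 0.709% of all rows either way, also called 0 in each list. DESeq2 called 0 fatty acid genes and 1 isoprenoid gene lower, where it called 5.24% of all rows lower. Of 23 genes of sterol efflux and conversion, by edgeR 0 rose, 1 fell and 22 did not pass, where 0.284% of all rows were called higher and 0.769% lower. At an unadjusted p under 0.05, 4 of the 23 were higher and 4 lower, beside the same 9.84% and 12.4% of all rows. DESeq2 called 1 of them higher, nr1h4, and 3 lower, cetp, ch25h and ch25hl2, where it called 2.73% and 5.24% of all rows. limma voom called 0 of them. The gene that fell by edgeR was ch25hl2, for a cholesterol hydroxylase-like enzyme, at 2.13, 8.21, 4.69 and 2.86 CPM in wild-type larvae and 1.19, 0.567, 1.02 and 0.842 CPM in homozygotes. It was 4.87-fold lower (edgeR adjusted p = 0.0254), and leaving out wild-type 2, wild-type 3, homozygote 1, homozygote 3 or homozygote 4 ended the call (highest adjusted p 0.0855), as did limma voom (0.066), library totals (0.0538) and the replicate block (0.0535). In mammals the related enzyme is made by activated macrophages. Beside it, 6 of 10 macrophage markers and 4 of 8 neutrophil markers were called lower by edgeR, where 0.769% of all rows were, with median log2 fold changes of -1.50 and -1.97 over the lists. DESeq2 called 8 and 5 of them lower, and limma voom 4 and 4, where these tools called 5.24% and 0.518% of all rows lower. Summed levels of the macrophage and neutrophil lists ran from 515.6 to 674.6 and from 1601 to 4282 CPM in wild-type larvae and from 382.5 to 554.3 and from 1110 to 2445 CPM in homozygotes. Most of each sum came from a single uncalled gene, apoc1 (425 CPM on average in wild-type larvae) and cpa5 (1957 CPM), picked out after their values were seen. Whether neutrophils are the source of cpa5 RNA was not tested, and the count of 4 of 8 includes cpa5 among the 8. The ranges of the sums therefore mostly follow apoc1 and cpa5, not the called markers, and are no measure of macrophage or neutrophil content. The part of these cells in the difference of ch25hl2 was not tested.

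**Figure D4:**
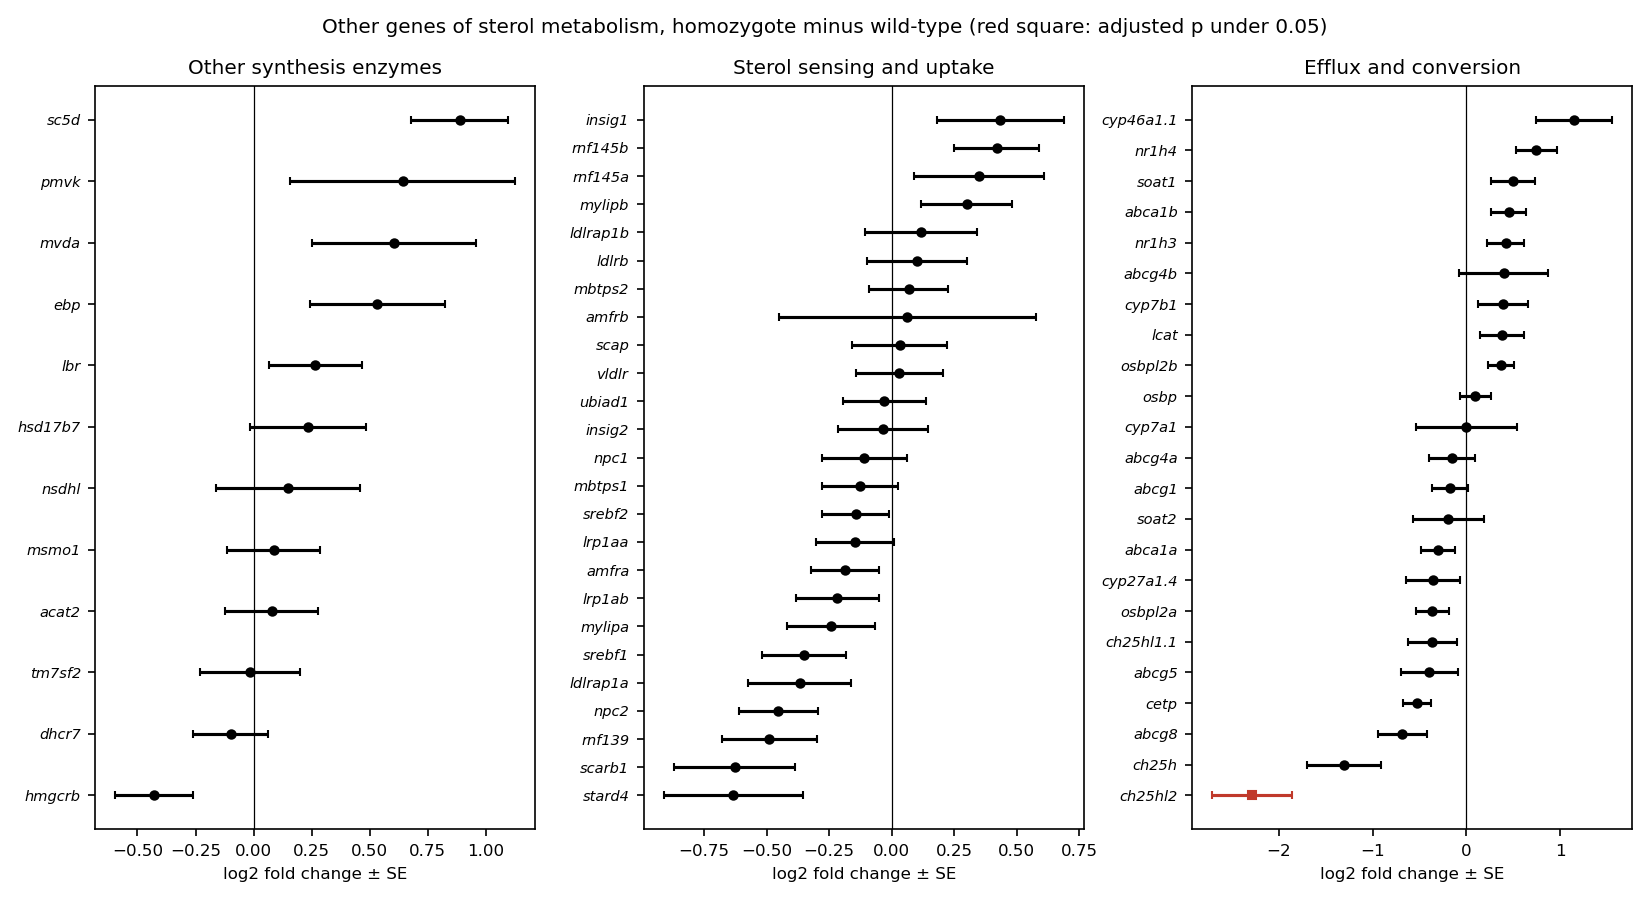
Log2 fold changes ± SE (homozygote minus wild-type) of tested genes on the lists of other synthesis enzymes, sterol sensing and uptake, and efflux and conversion. The single red square, ch25hl2, is the one gene past the adjusted threshold; sc5d and hmgcrb lie at the ends of the synthesis list.

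Markers of the main sterol-producing organs were compared as well. Of 16 hepatocyte markers, 2 fell by edgeR, as did 0.769% of all rows, 0 rose and 14 did not pass, and the median log2 fold change was -0.37. At an unadjusted p under 0.05 in edgeR, 1 was higher and 6 lower, where 9.84% and 12.4% of all rows were. DESeq2 called 4 lower, where it called 5.24% of all rows lower, and limma voom 2, where it called 0.518%. The 2 called by edgeR, singled out after their values were seen, were ces3, a carboxylesterase gene (-1.06, SE 0.21, adjusted p = 0.0355), and gc, for the vitamin D binding protein (-0.92, SE 0.20, adjusted p = 0.0451). Both calls were lost without wild-type 2, wild-type 3, homozygote 1, homozygote 3 or homozygote 4 (highest adjusted p 0.137 and 0.16) and with library totals (0.061 and 0.0682), and that of gc in the non-robust fit (0.0525). Summed hepatocyte markers lay between 8799 and 11720 CPM in wild-type larvae and between 6157 and 11270 CPM in homozygotes, lowest in homozygote 1, the larva with the highest hmgcra, hmgcs1, lss and cyp51. The highest homozygote sum, in homozygote 4, held 5487 CPM of apobb.1, an uncalled gene picked out after its values were seen. That gene was at 1491 to 2700 CPM in the other homozygotes and at 2247 to 2886 CPM in wild-type larvae. By edgeR 0 of 9 enterocyte markers were called (0 higher and 3 lower at an unadjusted p under 0.05; limma voom called 0 and DESeq2 1 lower), with sums of 1522 to 2929 and 1422 to 1959 CPM. No marker of either list was at 0 in any larva. The part of organ size in the levels of the 10 genes was not tested.

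Across larvae of a genotype, lss, idi1, hmgcs1, fdft1 and cyp51 varied together, though the exact order of larvae differed between them. The level of each gene was centred on its genotype mean and set against the mean of the other 9 over the 8 larvae, as a description only, since all points share their library and its scaling. Pearson's r was 0.97 for lss, 0.91 for idi1, 0.91 for hmgcs1, 0.88 for fdft1 and 0.87 for cyp51, lower for hmgcra (0.65), sqlea (0.59) and mvk (0.23), and negative for fdps (-0.34) and ldlra (-0.58). Wild-type 2 was the highest of its group for 6 of the 10 genes and homozygote 1 for 6, while wild-type 3 was the lowest for 5 and homozygote 3 for 7. Of 12425 other named genes with a mean of at least 5 CPM, those most like the mean of the 10 in this centred pattern included heatr3, sap130b, usp10, ipo4, ipo9, drosha, tm7sf2, cul1a and entpd4, with r from 0.90 to 0.95. With library totals their r ran from 0.82 to 0.97. tm7sf2 encodes a sterol reductase of the pathway; among the other synthesis enzymes, msmo1 ranked 32 (r = 0.85) and nsdhl 175 (r = 0.74).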

How the data were processed

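Single larvae were lysed separately, and their total RNA, treated with DNase, was depleted of ribosomal RNA and sequenced from random-primed libraries, per the labels' protocols. Per the submitters' processing notes, the authors used Trimmomatic, STAR 2.7 and RSEM with danRer11; settings, annotation and strand handling are not given in the sources used here. The authors deposited estimated counts per gene, not normalized, for 8 libraries in a single table; 0 columns belonged to other samples and 0 rows lacked a name.

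Estimated counts were rounded, filtered with filterByExpr (minimum count 10) and scaled by TMM. The fit was the robust quasi-likelihood model of edgeR 4.0.16 (R 4.3.3) with genotype alone, and Benjamini-Hochberg adjustment ran over all rows at 0.05. Standard errors were taken as the log2 fold change over the root of F. The steps were tested on simulated data. The planted changes were larger than the fitted folds of the 10 genes, so the power to call folds of that size was not measured. Replicate numbers name larvae and were not used as pairs. Larvae are separate animals, and no 2 libraries of the same genotype agreed within sampling noise (chi-square at least 20.7 per degree of freedom). Pairs across genotypes were not compared in this way.

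The 10 genes and all lists were chosen with earlier results of these data known. Named are the 10 genes, osgep, hmgcrb, srebf1, srebf2, scap, insig1, called genes of the non-marker lists (at most 4 each) and the 10 genes most alike across larvae; others were chosen after their values were seen. Some genes that the naming rule or the lists include are not reported here. sqleb had no row of that symbol here. Alternatives were other size factors, library totals, no filter, a minimum count of 50, DESeq2 1.42.0, limma 3.58.1 voom, a non-robust fit, dropping the 100 most abundant rows, a replicate block and leaving out libraries.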

Additional observations from a re-analysis of the deposited data

Results flagged for a closer look

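Of 44 gene and genotype groups examined for a larva far from the others, 1 was flagged, and chance flags about 1 in 20. It is insig1 in wild-type larvae: wild-type 1 was at 22.1 CPM while the other 3 lay between 10.2 and 12.2 CPM, a gap of 0.831 of the whole range.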

How the results depend on the processing

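The count of 226 changed genes was 123 with library totals alone, 349 with no filter and 1693 with DESeq2. It was 3952 with wild-type 1 and homozygote 2 both left out. That pair stands apart in these same data, not by any label, so the larger count is no independent support. With a single library left out the count ran from 38 without wild-type 3 to 2130 without wild-type 1. Of the 10 genes, 1 was called higher, fdps in each case, with no filter, with a minimum count of 50, with DESeq2, with the 100 most abundant rows removed and with both larvae left out, where 0.387%, 0.408%, 2.73%, 0.357% and 7.86% of all rows were called higher, and between 0 and 1 with a single library left out. The cause of these shifts was not tested. Replicate numbers marked no shared source and same-numbered larvae did not deviate together (r from -0.11 to 0.05); with the replicate block edgeR called 333 genes and 0 of the 10. Library totals turned the sign of mvk (0.28), idi1 (0.29), srebf1 (0.036) and srebf2 (0.25), a scaling that moved the median of all genes to 0.40; relative to that median they stayed negative, at -0.12, -0.11, -0.36 and -0.15. With a single library left out, the log2 fold change of idi1 ran from -0.214 to 0.0725 (above 0 without wild-type 2 or homozygote 3), that of mvk from -0.194 to 0.029 (above 0 without wild-type 4 or homozygote 3), that of ldlra from -0.0798 without homozygote 4 to 0.44, and that of scap from -0.126 without homozygote 4 to 0.156. With the replicate block scap was at -0.00028. None of these reversed values was called. ch25hl2 gave no value at a minimum count of 50. hmgcs1, hmgcra, sqlea, lss and cyp51 stayed above 0 and uncalled, and fdft1 below 0 and uncalled, in all 18 alternatives. Among the 10 genes, counting precision was coarsest for lss, mvk and sqlea, with 20 to 118, 38 to 69 and 34 to 84 counts per library. Outside them, ch25hl2 was lower still in homozygotes, at 0.567 to 1.19 CPM, so its fold rests on few counts there.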
